A study of Bos taurus with 12 samples.

Results

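The HOX genes of the 4 bovine clusters were followed in F7, a line of embryonic stem cells from cattle. Members were the entries of the deposited count table whose Entrez identifier belongs to a protein-coding gene named HOXA, HOXB, HOXC or HOXD plus a position from 1 to 13. The 36 members described here, among the 19285 entries of the count table, were 10 HOXA, 8 HOXB, 9 HOXC and 9 HOXD genes, and 7 of them stand at positions 1 to 3 of their cluster. HOXB5 and HOXB6 are not analysed here.

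The 12 poly-A RNA libraries form 4 groups of 3, all of the genotype labelled WT. The group MC carries the treatment label NC. The other groups are 1/7MC, then 1/7MC with pyruvate (1/7MC+Pyr), then 1/7MC+Pyr with FGF (1/7MC+Pyr+FGF), each labelled by that treatment. The series title places the study on sparse feeder layers and names the FGF as the human basic form, recombinantly made, and the labels do not spell out MC. F7 is 1 line, the labels do not say whether feeder cells were removed before RNA was taken, and nothing states that replicates came from separate cultures. The p-values below therefore measure only the spread between these samples, which may be technical.

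HOX genes encode homeodomain transcription factors that give cells their address along the head-to-tail axis of the embryo. Within a cluster the genes stand in the order in which they are switched on: those at the low-numbered end are the earliest, are expressed farthest toward the head, up to the hindbrain, and respond to retinoic acid, while those at the high-numbered end pattern the trunk, limbs and tail. In pluripotent cells the clusters are known to be held nearly silent by Polycomb complexes, whereas fibroblasts keep a HOX pattern that reflects where in the body they came from.

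The 12 libraries held 27373759 to 44440972 counts each, and the HOX genes together took 66 to 283 of them. The counts of MC replicates 2 and 3 stood apart from those of the remaining 10 libraries in entries that share an identifier: of 61 Entrez identifiers shared by several entries, 53 had differing counts in these 2 libraries and 0 in the others. The cause is not stated in the sources used here. Every comparison with MC was therefore repeated with MC represented by its replicate 1 alone, whose spread is then taken from the other groups. Markers of the labelled cell type were present in every group: the summed level of 8 pluripotency genes lay between 2498 and 4368 counts scaled to library size (CPM) in all libraries.

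All 36 members were scarce. HOXB13, HOXC12 and HOXD12 had a count of 0 in all 12 libraries, and the other 33 had at least 1 count somewhere. The highest level of any member in any library was 2.09 CPM, for HOXA2 in 1/7MC replicate 1. CPM here means counts divided by the library size after trimmed-mean scaling, times 1000000. A filter that asked for 0.297 CPM in at least 3 libraries kept 8 members for the test: HOXA2, HOXA5, HOXA11, HOXB9, HOXC6, HOXC8, HOXC9 and HOXC10. HOXA2 passed it through the 1/7MC libraries alone, so its passing already required a difference. HOXA5, HOXA11, HOXC6, HOXC9 and HOXC10 had no 1/7MC library at this level, and HOXB9 and HOXC8 had 1. Their passing thus leaned on MC and the groups with pyruvate. No HOXD gene was kept.

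**Figure D1:**
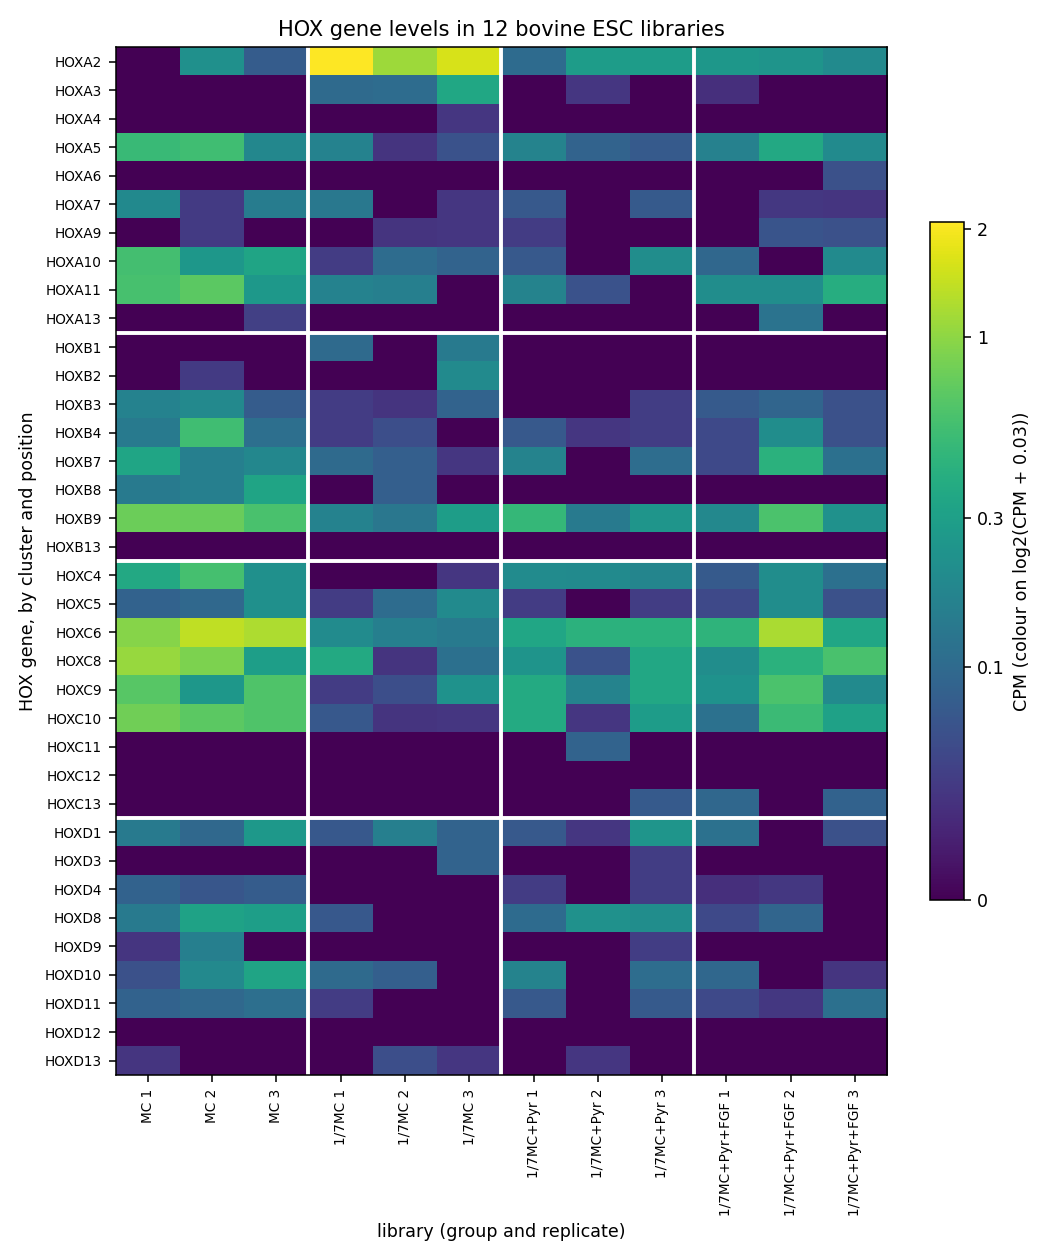
Level of each of the 36 HOX genes (rows, by cluster and position) in each of the 12 libraries (columns), as CPM on a colour scale in log2(CPM + 0.03). HOXA2 is bright in the 3 1/7MC libraries only, up to 2.09 CPM, and the HOXC genes at positions 6 to 10 are brightest in MC.

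HOXA2, which sets the identity of hindbrain segments and of the second branchial arch, had 0, 0.223 and 0.0741 CPM in MC. Its levels in 1/7MC were 2.09, 1.11 and 1.62 CPM. With pyruvate they were 0.103, 0.287 and 0.284 CPM, and with FGF as well they were 0.258, 0.242 and 0.198 CPM. The 1/7MC libraries did not overlap with any other group, while the other 3 groups overlapped with each other in part. HOXA2 kept counts in all 6 libraries with pyruvate.

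The comparison of 1/7MC with MC asks what the change labelled 1/7 did to the cells. In edgeR's quasi-likelihood test with Benjamini-Hochberg adjustment over 13920 genes, 1 of the HOX genes described was higher in 1/7MC, where 23.7% of all genes tested were higher. HOXA2 rose by 3.999 on the log2 scale (SE 0.61, adjusted p = 0.00021). As a ratio of pooled CPM, HOXA2 was 16.4-fold higher, with a 95% counting interval from 8.42 to 36.5. Such intervals cover counting error only. Of its 9 MC counts, 7 were in MC replicate 2, and without that library the log2 fold change was 5.47 (edgeR adjusted p = 0.00016). With MC replicate 1 alone, which has 0 counts, it was 8.78, a fitted value that depends on the prior count and is no bound.

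The same test found 7 of the 8 HOX genes tested lower in 1/7MC, where 21.3% of all genes tested were lower. All 7 stand at positions 5 to 11, but so does every tested member other than HOXA2, so the filter had set these positions in advance. The 7 had also passed the filter mainly through libraries other than 1/7MC. The filter thus favoured members low in 1/7MC, and their share cannot be weighed against the 21.3%. HOXC6, a gene of the thoracic region, had 0.952, 1.37 and 1.22 CPM in MC and 0.202, 0.159 and 0.144 CPM in 1/7MC. It fell by 2.79 on the log2 scale (SE 0.48, edgeR adjusted p = 0.00054). HOXC10, which acts in the lumbar region and hindlimb, had 0.812, 0.701 and 0.630 CPM in MC and 0.0675, 0.0265 and 0.0289 CPM in 1/7MC. It fell by 4.06 (SE 0.80, edgeR adjusted p = 0.0013). For both genes every MC library was above every 1/7MC library.

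HOXB9, a gene of the thoracic region, had 0.784, 0.765 and 0.593 CPM in MC against 0.169, 0.133 and 0.289 CPM in 1/7MC. HOXC9, its paralog in the HOXC cluster, had 0.672, 0.255 and 0.630 CPM against 0.0337, 0.0530 and 0.231 CPM. HOXC8 had 1.06, 0.893 and 0.297 CPM against 0.371, 0.0265 and 0.115 CPM. The groups did not overlap for HOXB9 and HOXC9, and for HOXC8 MC replicate 3 lay below 1/7MC replicate 1. The log2 fold changes were -1.85 for HOXB9 (edgeR adjusted p = 0.013), -2.23 for HOXC9 (edgeR adjusted p = 0.020) and -2.22 for HOXC8 (edgeR adjusted p = 0.028). Without 1/7MC replicate 3 the value for HOXC9 was -3.46, and without 1/7MC replicate 1 that for HOXC8 was -3.39.

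In the HOXA cluster, HOXA5, known for its part in lung development, had 0.504, 0.542 and 0.185 CPM in MC and 0.169, 0.0265 and 0.0577 CPM in 1/7MC. HOXA11, a limb and uterus gene, had 0.588, 0.701 and 0.259 CPM against 0.169, 0.159 and 0 CPM. The groups did not overlap for either gene, although MC replicate 3 was close to 1/7MC replicate 1 for HOXA5. HOXA5 fell by 2.34 (edgeR adjusted p = 0.011) and HOXA11 by 2.24 (edgeR adjusted p = 0.028).

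**Figure D2:**
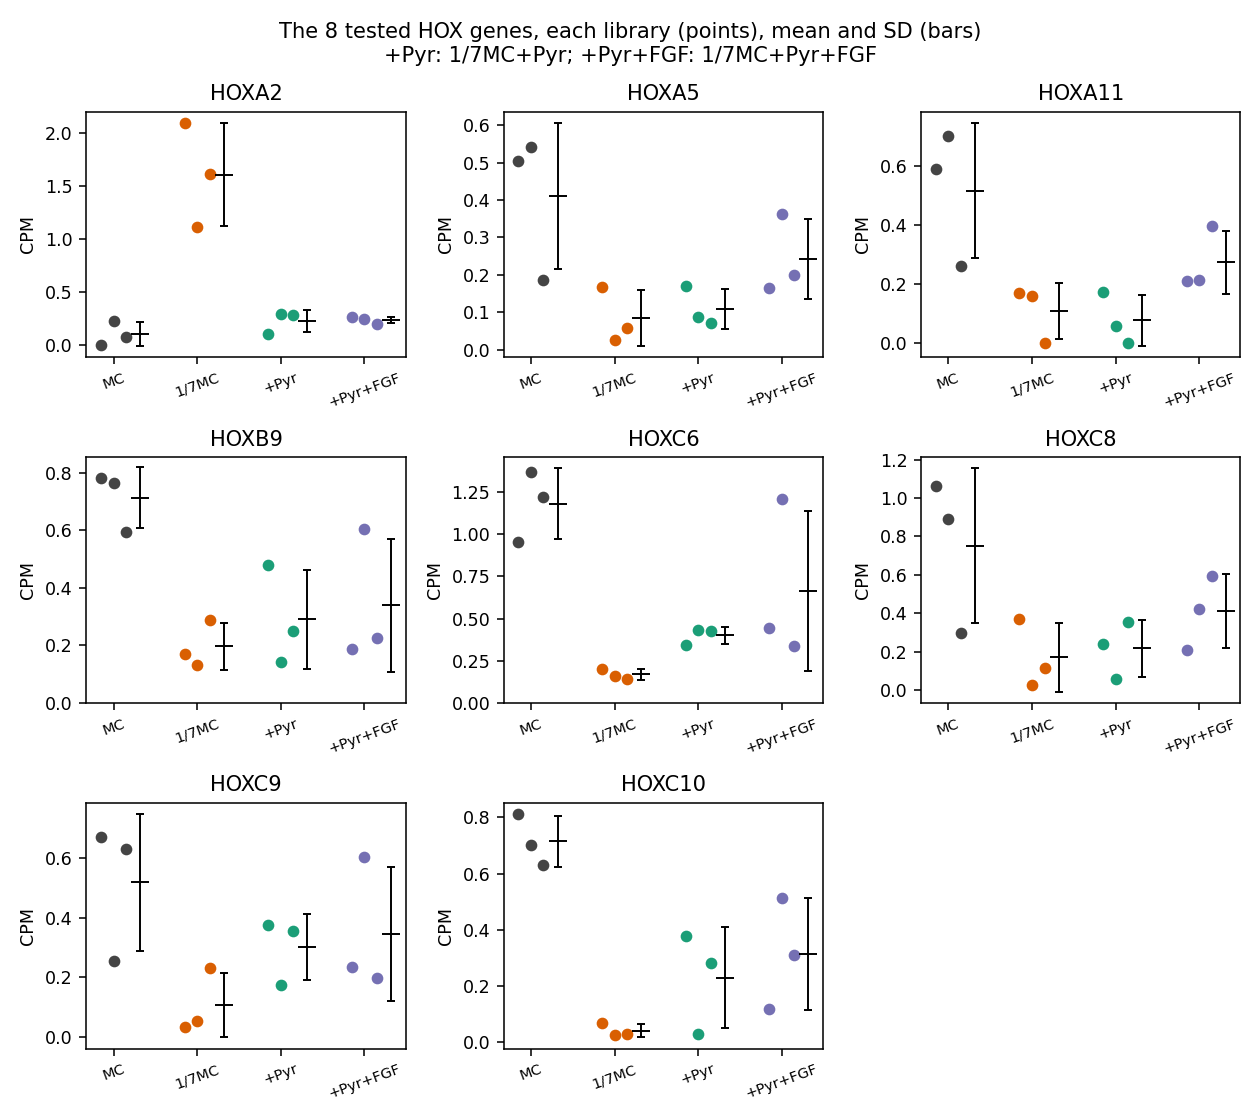
CPM of the 8 tested HOX genes in each library (points), with the mean and SD of each group of 3 (bar and whiskers), each panel with its own linear axis. HOXA2 is high in 1/7MC alone, and the other 7 genes have their highest mean in MC and spread widely in 1/7MC+Pyr+FGF, where HOXC6 reaches 1.21 CPM in replicate 2.

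The calls of HOXA2, HOXC6 and HOXC10 were retained under every alternative that tested the gene. The other 5 were lost with single libraries left out. HOXA5 had an adjusted p of 0.051 in edgeR's test without 1/7MC replicate 2. HOXA11 had 0.095 without MC replicate 2 and 0.083 without 1/7MC replicate 3, and HOXB9 had 0.056 without 1/7MC replicate 2. HOXC9 had 0.054 without MC replicate 3, 0.072 without 1/7MC replicate 1 and 0.077 without 1/7MC replicate 2. HOXC8 had 0.064 without MC replicate 1, 0.072 without MC replicate 2, 0.104 without 1/7MC replicate 2 and 0.095 without 1/7MC replicate 3. With MC reduced to its replicate 1, 12 HOX genes were tested, and edgeR called 1 of them higher (background 14.0%) and 6 lower (background 9.96%). HOXA11 (adjusted p = 0.085) and HOXB9 (adjusted p = 0.071) were then not called, while HOXC4 was.

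The remaining members were too low for the filter and are described by their counts. At positions 1 to 3, HOXA3 had 0 counts in the 3 MC libraries and 3, 4 and 12 in the 1/7MC libraries, which is at least 5.84-fold higher against a floor of 3 counts over the group. HOXB1, the first gene of the HOXB cluster, had 0 in MC and 3, 0 and 5 in 1/7MC, at least 2.46-fold higher against the same floor. HOXB2 had 1 count in MC and 7 in 1/7MC, all 7 of them in replicate 3, a ratio of 6.46 with an interval from 0.829 to 291. HOXD3 had 3 counts, all in 1/7MC replicate 3, against 0 in MC, which is at the floor. HOXB3 went the other way with 14 counts in MC and 5 in 1/7MC, as did HOXD1 with 15 and 11. The gene model of HOXB3 overlaps those of HOXB4, HOXB5 and HOXB6. HOXB1 and HOXB2 had 0 counts in all 6 libraries with pyruvate, and HOXA3 had 1 count in each of those groups.

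For HOXA3, HOXB1, HOXB2 and HOXD3, replicate 3 was the highest of the 1/7MC libraries. Without HOXA2, the other 6 genes at positions 1 to 3 summed to 0.308, 0.319 and 0.334 CPM in MC and to 0.304, 0.292 and 0.953 CPM in 1/7MC. The sum in 1/7MC was thus above MC in replicate 3 alone. Fitted with no filter on low counts (16892 genes), edgeR added HOXA3 to the members higher in 1/7MC, with an adjusted p of 0.012 and a background of 19.4%.

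At positions 4 to 8, HOXC4 had 13, 18 and 6 counts in MC and 0, 0 and 1 in 1/7MC, a ratio of MC to 1/7MC of 40.1 with an interval from 6.77 to 1627. HOXB4 had 25 counts in MC and 3 in 1/7MC, and HOXD8 had 23 and 2. HOXB8 had 5, 5 and 9 counts in MC, 0, 3 and 0 in 1/7MC and 0 in all 6 libraries with pyruvate. HOXC5 was the exception of this stretch with 12 counts in each group. HOXB7 had 22 counts in MC and 7 in 1/7MC, HOXA7 had 12 and 5, and HOXD4 had 7 and 0. HOXA4 had 1 count and HOXA6 had 2 in the whole set of libraries.

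At positions 9 to 13, HOXA10 had 20, 8 and 9 counts in MC and 1, 4 and 3 in 1/7MC. HOXD10 had 17 counts in MC and 6 in 1/7MC, HOXD11 had 9 and 1, and HOXD9 had 6 and 0. The most posterior members were at or near 0 everywhere: over the 12 libraries HOXA9 had 8 counts, HOXA13 had 5, HOXC11 had 3, HOXC13 had 9 and HOXD13 had 5. With no filter, edgeR called 11 members lower in 1/7MC (background 17.3%), adding HOXB4, HOXC4, HOXD4 and HOXD8 to the 7 above. Members close to the filter were also tested when single libraries were left out. HOXC4 was then called lower in 10 of these 12 fits, and HOXD8 and HOXA10 in 4 each. With all 12 libraries in, HOXC4, HOXD8 and HOXA10 reached the filter level in MC libraries only. Their entry into these fits thus leaned on the group where they were high, and these calls are no separate support.

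Sorted by position, 5 of the 7 members at positions 1 to 3 had a higher mean CPM in 1/7MC than in MC, HOXB2 and HOXD3 through replicate 3 alone. Over all genes, with no filter, the median log2 fold change was 0. Of the 29 members at positions 4 to 13, 20 had a lower mean, 3 a higher one and 6 were at 0 in both groups. The sum over positions 1 to 3 was 0.308, 0.542 and 0.408 CPM in MC and 2.39, 1.41 and 2.57 CPM in 1/7MC. The sum over positions 4 to 13 was 7.62, 7.91 and 6.23 CPM in MC and 1.72, 1.17 and 1.33 CPM in 1/7MC. Neither sum overlapped between the 2 groups, and they moved in opposite directions. HOXA2 made up 1.61 of the mean 2.12 CPM at positions 1 to 3 in 1/7MC, and without it that sum was above MC in replicate 3 alone. All 36 genes together had 7.67 ± 0.933 CPM in MC and 3.53 ± 0.835 CPM in 1/7MC (SD, n = 3 each), and these sums did not overlap.

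**Figure D3:**
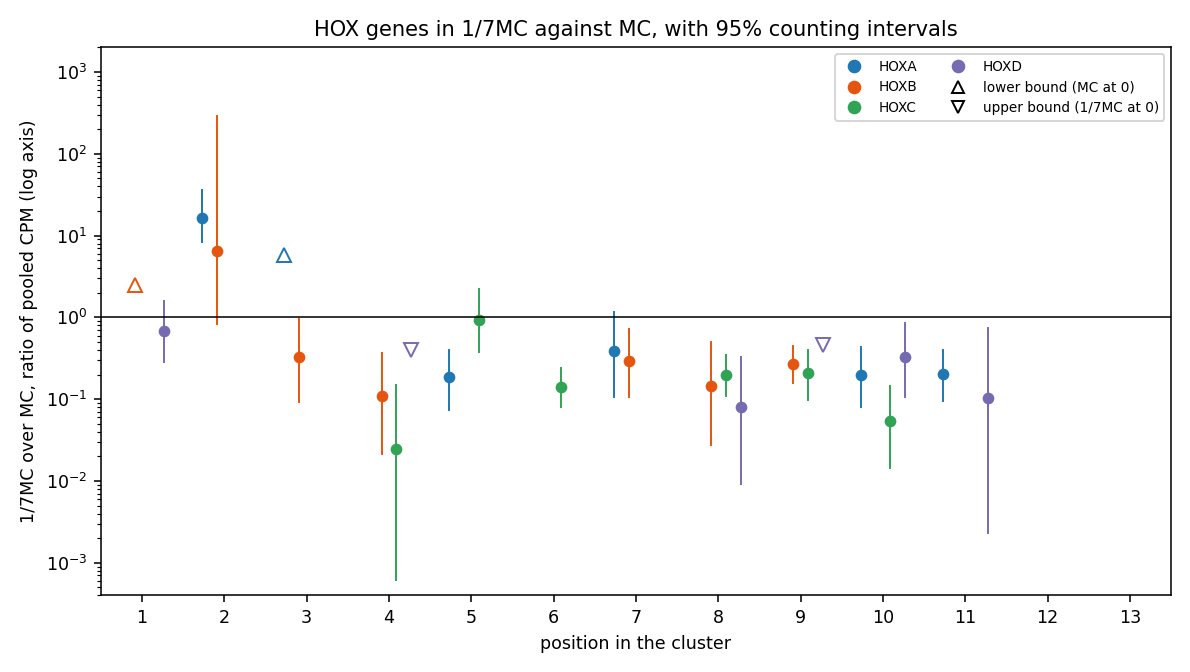
Ratio of pooled CPM in 1/7MC over MC for each HOX gene by its position in the cluster, on a log axis, with 95% counting intervals as lines and open triangles for bounds where a group had no count. Genes with 3 counts or fewer in both groups are not drawn, which leaves positions 12 and 13 empty. HOXA2, HOXA3, HOXB1 and HOXB2 lie above 1 and every gene drawn from position 4 onward lies below it, as do HOXB3 and HOXD1.

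The lower levels at positions 4 to 13 were spread over all 4 clusters. Their summed CPM in MC was 4.15 times that in 1/7MC for HOXA, 4.40 times for HOXB, 6.04 times for HOXC and 5.67 times for HOXD. The 22 members of these positions that were not tested gave a ratio of 4.62. HOXC has no member at positions 1 to 3.

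Per kilobase of gene length, the order of the levels changed between groups. In 1/7MC, HOXA2 stood first with 1.19 ± 0.363 CPM per kb (SD, n = 3). The next, HOXC5, had 0.152 ± 0.112 CPM per kb, and their spreads do not overlap. In MC, the leading genes were HOXB9 with 0.543 ± 0.080 CPM per kb, HOXC9 with 0.459 ± 0.203 and HOXC10 with 0.400 ± 0.0514, where HOXC9 overlapped both within 1 SD while HOXB9 and HOXC10 did not overlap each other. HOXC9 and HOXB9 led in both groups with pyruvate. In 1/7MC+Pyr they had 0.267 ± 0.0993 and 0.221 ± 0.131 CPM per kb, and with FGF added they had 0.306 ± 0.199 and 0.258 ± 0.175. Gene models overlap in the clusters, and whether the libraries keep the strand is not stated. Reads of HOXA3 with HOXA4 and HOXA5, of HOXA5 with HOXA6, of HOXB3 with HOXB4, of HOXB8 with HOXB9, of HOXD3 with HOXD4 and of HOXD10 with HOXD11 cannot be told apart with certainty. The same holds for HOXB3 with HOXB5 and HOXB6, which have no entry of their own here.

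The comparison of 1/7MC+Pyr with 1/7MC asks what pyruvate changed. HOXA2 fell by 2.80 on the log2 scale (SE 0.54, edgeR adjusted p = 0.0034). Among the members described, this was the 1 called lower, where 10.1% of all genes tested were lower, and the call was retained under all alternatives. HOXA2 had passed the filter through the 1/7MC libraries alone. The sum over positions 1 to 3 was 0.171, 0.345 and 0.604 CPM in 1/7MC+Pyr, below every 1/7MC library and overlapping with MC.

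At positions 4 to 13 few members passed the test. edgeR called 0 HOX genes higher in 1/7MC+Pyr than in 1/7MC, where 8.08% of all genes tested were higher, and DESeq2 also called 0. At an unadjusted p under 0.05, edgeR had 2 genes, HOXC6 and HOXC10. HOXC6 had 0.343, 0.431 and 0.426 CPM in 1/7MC+Pyr, above every 1/7MC library (log2 fold change 1.24, edgeR adjusted p = 0.14). HOXC10 had 0.377, 0.0287 and 0.284 CPM, with replicate 2 at the level of 1/7MC (log2 fold change 2.39, edgeR adjusted p = 0.10). HOXC4 had 6, 7 and 5 counts in 1/7MC+Pyr against 0, 0 and 1 in 1/7MC, and edgeR called it higher when no filter was set (adjusted p = 0.017, background 6.09%). The lower call of HOXA2 was the same without a filter (background 7.7%). HOXC4 was also called higher in 9 of the 12 fits that left out 1 library, and these were the fits without any one of the 6 libraries with pyruvate, MC replicate 3, 1/7MC replicate 1 or 1/7MC replicate 3. HOXC10 was called without 1/7MC+Pyr replicate 2, HOXC6 without 1/7MC+Pyr+FGF replicate 2 and HOXD8 without 1/7MC replicate 1. The sum over positions 4 to 13 was 3.19, 1.55 and 2.91 CPM, which overlapped with the 1/7MC libraries in replicate 2.

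Against MC, the cells of 1/7MC+Pyr had 3 HOX genes lower, where 13.2% of all genes tested were lower, and 0 higher, where 15.2% were higher. HOXA11 fell by 2.72 (edgeR adjusted p = 0.026), HOXA5 by 1.91 (edgeR adjusted p = 0.040) and HOXC6 by 1.55 (edgeR adjusted p = 0.018). HOXA5 had 0.171, 0.0862 and 0.0710 CPM in 1/7MC+Pyr, and HOXA11 had 0.171, 0.0575 and 0 CPM. HOXA2 had a log2 fold change of 1.20 against MC with an edgeR adjusted p of 0.26. For 0 higher, edgeR also had 0 genes at an unadjusted p under 0.05 and DESeq2 had 0. With MC reduced to its replicate 1, none of the 3 was called lower (background 3.15%), and HOXA2, at 0 counts in that library, was called higher (adjusted p = 0.049, background 6.56%). With no filter, 4 were lower (HOXA11, HOXB3, HOXB8 and HOXC6, background 10.3%) and 0 higher (background 12.3%).

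None of the 3 lower calls was retained with each library left out. HOXA5 was not called without MC replicate 1 (adjusted p = 0.078), MC replicate 2 (0.135), 1/7MC+Pyr replicate 2 (0.109) or 1/7MC+Pyr replicate 3 (0.129) in edgeR's test, nor without 1/7MC replicate 3 (0.053) or 1/7MC+Pyr+FGF replicate 3 (0.056). HOXA11 was not called without MC replicate 2 (0.089), 1/7MC+Pyr replicate 2 (0.083) or 1/7MC+Pyr replicate 3 (0.089). HOXC6 was not called without MC replicate 2 (0.068), MC replicate 3 (0.051), 1/7MC+Pyr replicate 1 (0.063) or 1/7MC+Pyr replicate 3 (0.053).

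Adding FGF to pyruvate moved no HOX gene past the threshold. edgeR called 0 higher, where 0.639% of all genes tested were higher, and 0 lower, where 2.12% were lower. At an unadjusted p under 0.05 edgeR had 0 members in either direction. DESeq2 had 1, HOXA11 (log2 fold change 1.83, unadjusted p = 0.044, adjusted p = 0.24), and called 0. With no filter the counts were again 0 higher (background 0.491%) and 0 lower (background 1.57%). HOXC6 had 0.445, 1.21 and 0.340 CPM in 1/7MC+Pyr+FGF, so that replicate 2 alone was at the level of MC. The same library was the highest of its group for HOXA5, HOXB9, HOXC9 and HOXC10. Its sum over positions 4 to 13 was 5.35 CPM, against 2.18 and 3.17 CPM in replicates 1 and 3. Whether a difference of the size of the spread in 1/7MC+Pyr+FGF could be detected at this depth was not tested.

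**Figure D4:**
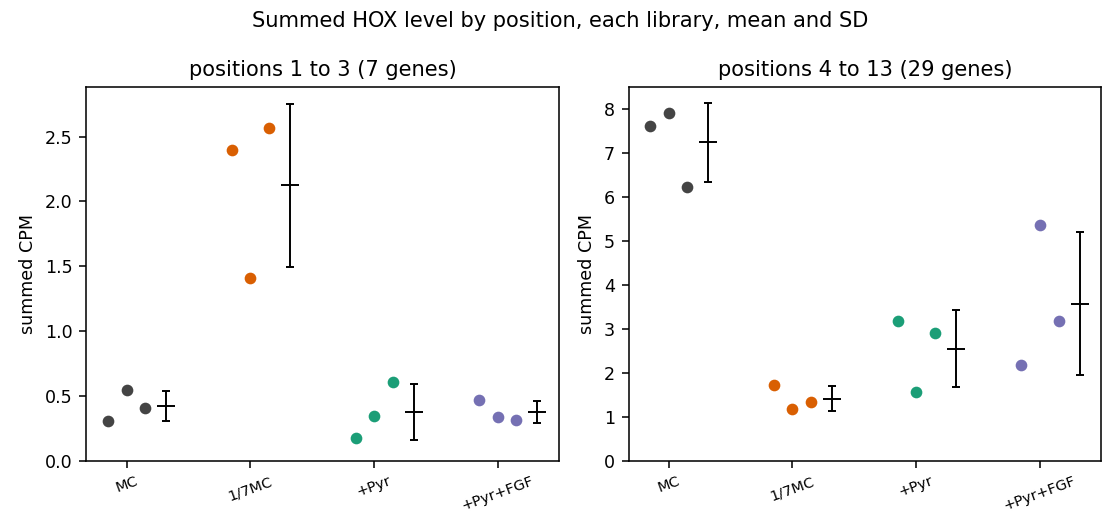
Summed CPM of the 7 HOX genes at positions 1 to 3 (left) and the 29 at positions 4 to 13 (right) in each library (points), with the mean and SD of each group of 3. The left sums are 1.41 to 2.57 CPM in 1/7MC and at most 0.604 CPM elsewhere, while the right sums are highest in MC and have their lowest mean in 1/7MC.

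With both pyruvate and FGF, 2 HOX genes were higher than in 1/7MC, where 11.9% of all genes tested were higher, and 1 was lower, where 15.7% were lower. HOXA2 fell by 2.76 (SE 0.52, edgeR adjusted p = 0.0021). HOXC6 rose by 1.95 (SE 0.50, edgeR adjusted p = 0.013). Without 1/7MC+Pyr+FGF replicate 2 its rise was 1.22 (edgeR adjusted p = 0.043), and limma on the rescaled deposited signal did not call it (adjusted p = 0.17 and 0.28 with pseudocounts of 0.1 and 1). HOXC10, with 0.117, 0.514 and 0.312 CPM in 1/7MC+Pyr+FGF, rose by 2.84 (SE 0.88, edgeR adjusted p = 0.030). The call of HOXC10 was lost with a replicate block (adjusted p = 0.057) and with any of 5 single libraries left out. In edgeR's test, those libraries were 1/7MC replicate 1 (0.054), replicate 2 (0.103) and replicate 3 (0.094), and 1/7MC+Pyr+FGF replicate 2 (0.102) and replicate 3 (0.061). With no filter, 3 members were higher, HOXC4 (adjusted p = 0.034) besides HOXC6 and HOXC10 (background 9.16%), and 2 were lower, HOXA3 (adjusted p = 0.035) besides HOXA2 (background 12.3%).

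Against MC, edgeR called 0 HOX genes higher and 0 lower in 1/7MC+Pyr+FGF, where 17.1% of all genes tested were higher and 15.4% lower. At an unadjusted p under 0.05 there were 0 higher and 1 lower, HOXB9, and DESeq2 called 0 in either direction. HOXC9 (log2 fold change -0.61) and HOXC6 (-0.84) had edgeR adjusted p of 0.44 and 0.13. With MC replicate 1 alone, HOXA2 was called higher (adjusted p = 0.040, background 5.86%) and 0 were lower (background 6.13%). With no filter, HOXB8 was the 1 member lower (adjusted p = 0.022, background 12.3%) and 0 were higher (background 13.6%). Without 1/7MC+Pyr+FGF replicate 2, the library with the highest sum at positions 4 to 13, edgeR called HOXB9, HOXC4 and HOXC6 lower than in MC. HOXC4 was called lower in 3 more of the 12 fits, those without MC replicate 3, 1/7MC replicate 2 or 1/7MC replicate 3, and HOXD8 in the fit without 1/7MC replicate 1. With all 12 libraries in, HOXC4 and HOXD8 reached the filter level in MC libraries only. The comparisons with 1/7MC share the 1/7MC libraries and those with MC share the MC libraries, so their results are not independent of each other.

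The TALE homeodomain proteins of the MEIS and PBX families bind DNA together with HOX proteins. Of 8 such genes tested, 4 were higher in 1/7MC than in MC and 0 were lower, with a median log2 fold change of 0.69 against 0.00 over all genes tested. MEIS1 had 7.11, 7.24 and 6.89 CPM in MC and 37.1, 34.7 and 34.7 CPM in 1/7MC. It rose by 2.32 (SE 0.12, edgeR adjusted p = 5.1e-08), MEIS2 by 2.03 (SE 0.10, edgeR adjusted p = 2.6e-08) and MEIS3 by 0.93 (SE 0.14, edgeR adjusted p = 0.00014). From 1/7MC to 1/7MC+Pyr, 3 of the 8 were lower and 0 higher (backgrounds 10.1% and 8.08%), with a median of -0.33 against -0.01 over all genes tested. MEIS1 fell by 1.39, MEIS2 by 1.18 and MEIS3 by 0.62 (edgeR adjusted p = 1.3e-05, 8.5e-06 and 0.0075). With FGF added, 1 of the 8 was higher and 1 lower (backgrounds 0.639% and 2.12%): MEIS2 rose by 0.62 (edgeR adjusted p = 0.0056) and MEIS1 fell by 0.50 (edgeR adjusted p = 0.046). With MC replicate 1 alone, the median was 0.30, and MEIS1, MEIS2 and MEIS3 rose by 2.33, 2.04 and 1.20.

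Retinoic acid, made from retinol by RDH10 and the ALDH1A enzymes and broken down by the CYP26 enzymes, is the signal known to switch on the low-numbered HOX genes. Of 17 genes of its synthesis, breakdown and reception tested, 7 were higher and 5 lower in 1/7MC than in MC, with a median log2 fold change of 0.22. ALDH1A2 had 0.616, 0.606 and 0.630 CPM in MC and 4.45, 4.53 and 3.93 CPM in 1/7MC, a rise of 2.79 (SE 0.18, edgeR adjusted p = 2.4e-07). RDH10 had 8.43, 8.89 and 9.67 CPM in MC and 25.6, 34.7 and 31.99 CPM in 1/7MC, a rise of 1.77 (SE 0.14, edgeR adjusted p = 1.3e-06). CYP26A1 had 48.1, 49.3 and 51.5 CPM in MC and 17.4, 19.6 and 19.5 CPM in 1/7MC, a fall of 1.40 on the log2 scale (SE 0.10, edgeR adjusted p = 6.4e-07). For all 3 genes the groups did not overlap. Enzymes of synthesis and of breakdown were both among the genes that rose. The breakdown enzyme CYP26C1 had 1.68, 1.85 and 1.67 CPM in MC and 4.05, 4.30 and 4.42 CPM in 1/7MC, a rise of 1.29 (edgeR adjusted p = 0.00080). The synthesis enzyme ALDH1A3 rose by 2.35 (edgeR adjusted p = 7.2e-06), while ALDH1A1 had a log2 fold change of -0.74 (edgeR adjusted p = 0.19). ALDH1A1 was named after its values were seen. With MC replicate 1 alone, 6 of the 17 were higher (background 14.0%) and 3 lower (background 9.96%), and ALDH1A2, RDH10 and CYP26A1 kept their calls.

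From 1/7MC to 1/7MC+Pyr, 7 of the 17 were lower and 1 was higher (backgrounds 10.1% and 8.08%), with a median of -0.27. ALDH1A3 had 18.9, 13.7 and 25.3 CPM in 1/7MC and 1.99, 2.16 and 2.77 CPM in 1/7MC+Pyr, a fall of 3.06 (SE 0.25, edgeR adjusted p = 8.5e-06). CYP26C1 fell by 3.12 (SE 0.27, edgeR adjusted p = 1.5e-05) and RDH10 fell by 1.501 (SE 0.14, edgeR adjusted p = 2.5e-05). Synthesis and breakdown enzymes were thus both among the genes that fell. CYP26A1 had 24.0, 19.98 and 21.1 CPM in 1/7MC+Pyr, below every MC library. With FGF added, 1 of the 17 was higher and 0 lower (backgrounds 0.639% and 2.12%): ALDH1A2, with 1.92, 2.44 and 1.81 CPM in 1/7MC+Pyr, had 5.57, 6.47 and 6.12 CPM in 1/7MC+Pyr+FGF (a rise of 1.55, edgeR adjusted p = 0.00059). The part of these genes in the HOX values was not tested.

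RARB, a retinoic acid receptor gene, was singled out after its values were seen. It had 1.96, 2.81 and 3.93 CPM in MC, 8.67, 9.996 and 9.10 CPM in 1/7MC and 4.18, 3.85 and 3.83 CPM in 1/7MC+Pyr. It rose by 1.68 from MC to 1/7MC (edgeR adjusted p = 3.1e-05) and fell by 1.23 to 1/7MC+Pyr (edgeR adjusted p = 0.0011). The related receptor genes went different ways. Summed over the libraries of each group, RARA had 6280 counts in MC and 9421 in 1/7MC, while RARG had 13824 and 8390. RARB alone is thus no measure of retinoic acid signalling.

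**Figure D5:**
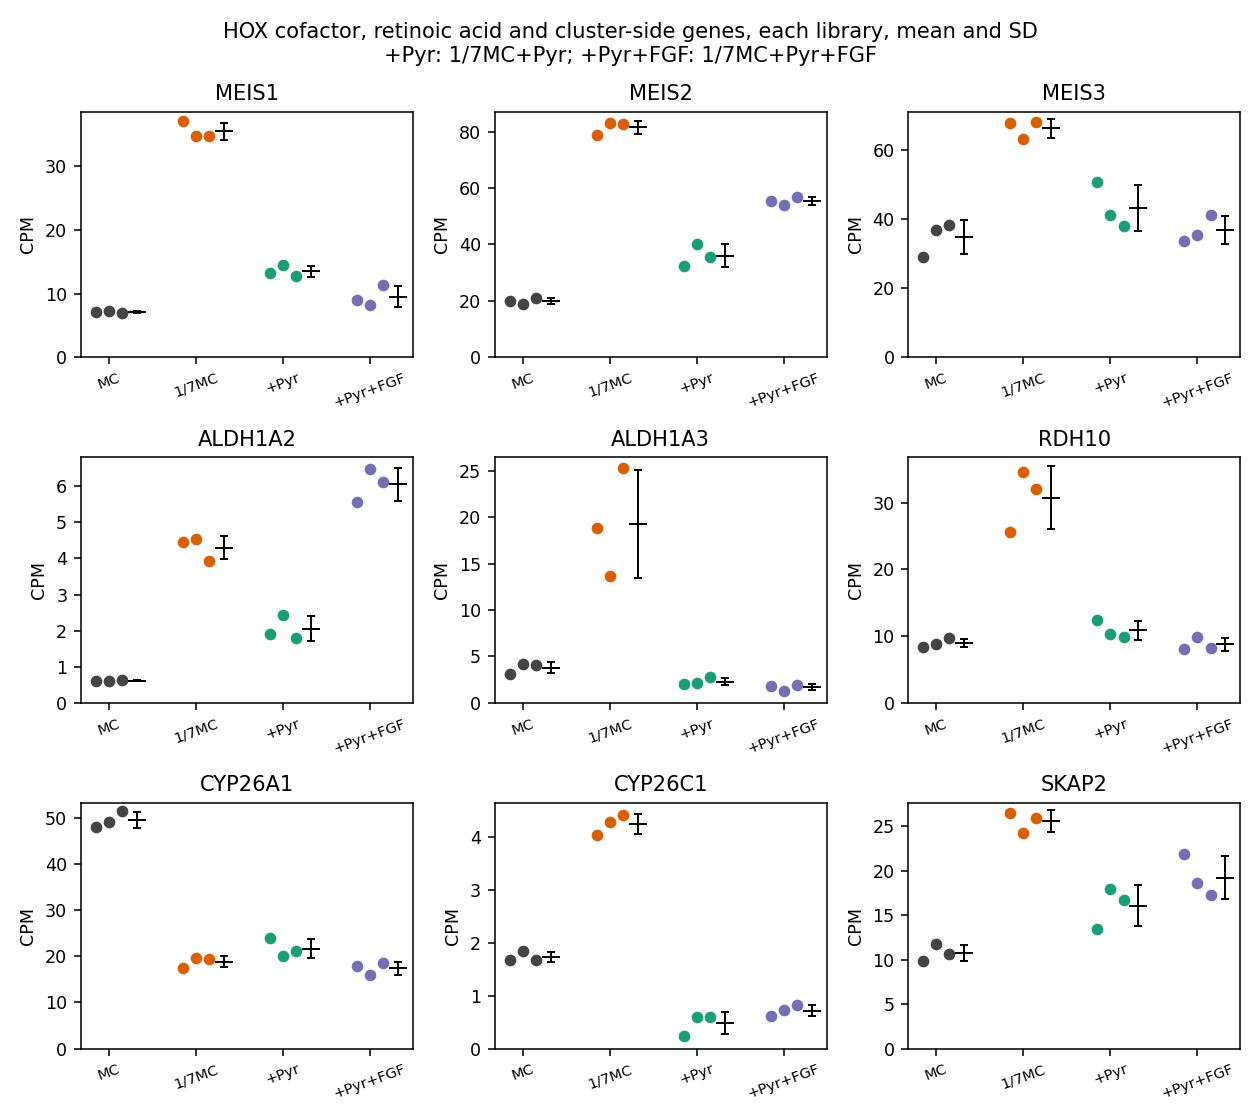
CPM of MEIS cofactor genes, retinoic acid genes and SKAP2, the gene beside the HOXA cluster, in each library (points), with the mean and SD of each group of 3, each panel with its own linear axis. MEIS1, MEIS2, MEIS3, ALDH1A3, RDH10, CYP26C1 and SKAP2 are highest in 1/7MC, CYP26A1 is highest in MC, and ALDH1A2 is highest in 1/7MC+Pyr+FGF.

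CDX and other genes that drive posterior axis growth are known to switch on the trunk HOX genes. Of 13 such genes, 8 could be tested, with 2 higher and 3 lower in 1/7MC than in MC and a median log2 fold change of 0.30. The median was -0.02 with MC replicate 1 alone. NR6A1, a member of this list named after its values were seen, had 686 CPM in MC replicate 1 and 181 and 179 CPM in MC replicates 2 and 3. WNT5A rose by 1.58 (edgeR adjusted p = 3.0e-05), GDF11 rose by 0.68 (edgeR adjusted p = 0.0021) and FGF8 fell by 1.51 (edgeR adjusted p = 0.016). CDX1, CDX2, TBXT and MSGN1 were at or near 0, with 3, 5, 0 and 0 counts over the MC libraries and 0, 0, 0 and 1 over the 1/7MC libraries. In the step to 1/7MC+Pyr, 2 of the 8 fell (background 10.1%), FGF8 by 2.61 (edgeR adjusted p = 0.010) and GDF11 by 0.61 (edgeR adjusted p = 0.012), and 0 rose (background 8.08%). With FGF added, 0 changed in edgeR's test (backgrounds 0.639% higher and 2.12% lower). With MC reduced to its replicate 1, GDF11 (adjusted p = 0.086) and FGF8 (adjusted p = 0.072) were not called in edgeR's test. FGF8 also lost its call without 1/7MC replicate 3 (0.067), and the fall of GDF11 in 1/7MC+Pyr was lost without 1/7MC+Pyr replicate 3 (0.062).

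Polycomb and Trithorax complexes keep HOX chromatin closed or open. Of 22 of their genes tested, 2 were higher and 9 lower in 1/7MC than in MC, with a median log2 fold change of -0.27. Against MC replicate 1 alone, the median was -0.07. The canonical Polycomb genes PHC2 and CBX8 rose by 0.72 and 1.23 (edgeR adjusted p = 1.9e-05 and 7.8e-05), and MEN1, a partner of Trithorax-type methyltransferases, fell by 0.65 (edgeR adjusted p = 2.5e-05). In the step to 1/7MC+Pyr, 3 of the 22 rose and 4 fell, where 8.08% and 10.1% of all genes tested did, with a median of 0.00. JARID2, a Polycomb cofactor, rose by 1.01 (edgeR adjusted p = 0.0016), while PHC2 fell by 0.54 and CBX8 by 0.89 (edgeR adjusted p = 0.00076 and 0.0025). With FGF added, edgeR called 0 of the 22, where 0.639% of all genes tested were higher and 2.12% lower.

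Genes next to the clusters were looked at for changes that reach beyond them. In the order of the gene table, SKAP2 is the neighbour of the HOXA cluster at its low-numbered end. Its levels were 9.86, 11.7 and 10.7 CPM in MC and 26.5, 24.2 and 26.0 CPM in 1/7MC. SKAP2, an adaptor of cell adhesion signalling, rose by 1.25 (SE 0.13, edgeR adjusted p = 1.1e-05) and fell by 0.67 in 1/7MC+Pyr (SE 0.13, edgeR adjusted p = 0.0037). Of the 11 neighbouring genes tested, 2 were higher and 3 lower in 1/7MC, with a median log2 fold change of -0.18, and 1 was lower and 0 higher in 1/7MC+Pyr against 1/7MC (backgrounds 10.1% and 8.08%), with a median of 0.02. Against MC replicate 1 alone, the median in 1/7MC was -0.05. CALCOCO2 fell by 0.64 and CBX5 by 0.32 in 1/7MC (edgeR adjusted p = 0.0024 and 0.011), and CBX5 lost its call with MC replicate 1 alone (adjusted p = 0.12). Of the ParaHOX and related homeobox genes, 2 could be tested, and MEOX1 rose by 2.39 in 1/7MC (edgeR adjusted p = 0.00047) and by a further 1.39 in 1/7MC+Pyr (edgeR adjusted p = 0.0094).

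Markers of other cells moved with the groups. All 16 fibroblast and feeder genes were higher in 1/7MC than in MC, and their summed level was 4540 to 4924 CPM in MC, 15376 to 21408 in 1/7MC, 17930 to 27851 in 1/7MC+Pyr and 11523 to 17270 in 1/7MC+Pyr+FGF. The fibroblast sum was above that of MC in every 1/7MC library, and its ranges in 1/7MC and 1/7MC+Pyr overlapped. All 10 epithelial genes and 6 of 8 pluripotency genes were lower in 1/7MC, and 7 of 10 and 7 of 8 were higher in 1/7MC+Pyr than in 1/7MC (background 8.08%). In bulk RNA, fewer cells of a type and less RNA per cell cannot be told apart, and the part of these markers in the HOX values was not tested.

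Among genes of the hindbrain and spinal cord, 3 of 7 could be tested, with 1 higher and 1 lower in 1/7MC. The median log2 fold change was 0.19, and it was 0.85 with MC replicate 1 alone, where 6 could be tested. PAX3, a dorsal neural tube and neural crest gene, had 0.252, 0.223 and 0.111 CPM in MC, 4.69, 4.03 and 4.85 CPM in 1/7MC and 0.445, 0.0575 and 0.0710 CPM in 1/7MC+Pyr. It rose by 4.47 and then fell by 4.57 (edgeR adjusted p = 1.1e-05 and 5.5e-05), and no 1/7MC library overlapped with the other groups. EGR2, a marker of hindbrain segments, fell by 1.65 (edgeR adjusted p = 0.00033). Forebrain and eye genes, which mark a territory without HOX expression, moved as well, with 3 of 9 higher and 4 lower in 1/7MC. Their median log2 fold change was 0.38, or -0.07 with MC replicate 1 alone. SIX6 had 2.101, 1.91 and 2.26 CPM in MC, 25.4, 19.4 and 29.05 CPM in 1/7MC and 0.617, 1.21 and 0.533 CPM in 1/7MC+Pyr (a rise of 3.56 and a fall of 4.94, edgeR adjusted p = 4.5e-07 and 8.1e-07). HESX1 and FEZF2, named after their values were seen, went the other way from MC to 1/7MC. Summed over the libraries of each group, HESX1 had 4541 counts in MC and 1602 in 1/7MC, and FEZF2 had 2889 and 1950.

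Of the mesoderm genes, 3 of 7 tested were higher and 1 lower in 1/7MC, led by ISL1 with a rise of 4.46 (edgeR adjusted p = 9.2e-08). Their median log2 fold change was 0.85, or 0.75 with MC replicate 1 alone. Blood and endothelial genes had 2 higher and 2 lower of 6, and trophectoderm genes had 2 higher and 2 lower of 4. The blood and endothelial median was 0.25, or -0.05 with MC replicate 1 alone. The trophectoderm median was 0.31, or 0.13 with MC replicate 1 alone. For these lists, as for those of the pathways above, the members were chosen by function and the shares stand beside the 23.7% and 21.3% of all genes that were higher and lower in the same comparison.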

How the data were processed

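Poly-A RNA of the 12 libraries was processed by the authors. The tools named in the submitters' processing notes are HISAT2 2.1.0 for the build bosTau9, featureCounts with Subread 2.0, and fastp 0.19.7; settings and annotation are not given in the sources used here. The authors deposited raw counts per gene with no normalisation. A deposited signal table named TPM equals count over length times 1 constant in all libraries, so it carries no depth correction and served, rescaled, only as an alternative in limma 3.58.1 with log2 pseudocounts of 0.1 and 1. Of 19285 entries, 400 were left out because their identifier occurs more than once. Symbols and neighbours came from a gene table of ARS-UCD2.0, another build, so no coordinates are given, and 37 members were matched by Entrez identifier, of which 36 are described; 1 member, and 1 gene of a marker list, are not reported here.

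Counts were fitted for all genes in edgeR 4.0.16 (R 4.3.3) with TMM factors, filterByExpr, quasi-likelihood F tests over all 12 libraries with 1 coefficient per group, and Benjamini-Hochberg adjustment over 13920 genes, called at an adjusted p under 0.05. Fold changes are log2, fitted with edgeR's default prior count. A prior count of 2 was used only in the log2 CPM that checked whether replicate numbers pair the samples. Counting intervals are exact conditional binomial at 95%. Alternatives were DESeq2 1.42.0, RLE factors, other filters, a replicate block, 2 groups at a time, each library left out and MC replicate 1 alone; that alternative combined with no filter was chosen after seeing the data. The test was checked on simulated data, with changes placed only in genes above a mean CPM that most HOX members do not reach. That check does not show how the test performs at their counts. Members and lists were chosen with earlier results of these data known. HOX genes called in a comparison are named with their CPM in each library of the groups compared, the others with their counts, and other lists with up to 3 genes of smallest p.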

Additional observations from a re-analysis of the deposited data

How the results depend on the processing

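No called gene changed direction, while the median of the posterior list in 1/7MC vs MC went from 0.30 to -0.02 with MC replicate 1 alone. Those of the forebrain and eye list (0.38 to -0.07) and of the blood and endothelial list (0.25 to -0.05) also changed sign. Of 1007 alternatives for single genes 950 kept the call and 57 lost it, and of 792 alternatives for counts of called genes 722 stayed within 1.5 times and 70 did not. The cause was not tested except where fewer genes or samples entered. With no filter, HOX counts became 2 higher and 11 lower in 1/7MC vs MC, 1 higher in 1/7MC+Pyr vs 1/7MC, 2 lower in 1/7MC+Pyr+FGF vs 1/7MC and 1 lower in 1/7MC+Pyr+FGF vs MC, and 1 ParaHOX gene was lower in 1/7MC. With the stricter filter (1 CPM in 3 libraries), which tests fewer genes, 1 HOX gene was lower in 1/7MC vs MC, 1 lower in 1/7MC+Pyr vs MC and 1 higher in 1/7MC+Pyr+FGF vs 1/7MC, and 1 TALE gene was lower in 1/7MC. Fitting only the 2 groups compared gave 3 HOX genes lower in 1/7MC vs MC, 1 lower in 1/7MC+Pyr vs MC and 1 higher in 1/7MC+Pyr+FGF vs 1/7MC, and 1 posterior gene higher in 1/7MC+Pyr. The rescaled signal gave 0 HOX genes higher in 1/7MC+Pyr+FGF vs 1/7MC and 1 lower vs MC with either pseudocount, 5 lower in 1/7MC+Pyr vs MC with 0.1, 2 neighbouring genes lower in 1/7MC+Pyr with either, and with 1 also 1 neighbour lower in 1/7MC and 1 ParaHOX gene lower in 1/7MC+Pyr. With MC replicate 1 alone, HOX counts were 1 higher and 0 lower in 1/7MC+Pyr vs MC and 1 higher in 1/7MC+Pyr+FGF vs MC, and the 1/7MC vs MC lists had 1 higher and 1 lower posterior gene, 3 lower retinoic acid genes, and 1 higher and 1 lower neighbour. That library with no filter, added after seeing the data, gave 0 HOX genes lower in 1/7MC+Pyr, 1 higher in 1/7MC+Pyr+FGF, 1 higher posterior gene, 3 lower retinoic acid genes and 1 neighbour in each direction. Leaving out 1 library at a time, HOX counts ranged from 4 to 10 lower in 1/7MC vs MC, 0 to 2 higher in 1/7MC+Pyr and 1 to 3 higher in 1/7MC+Pyr+FGF vs 1/7MC, and 0 to 4 and 0 to 3 lower in these groups vs MC. The lists ranged from 0 to 1 TALE, 0 to 3 posterior, 3 to 6 retinoic acid and 2 to 3 neighbouring genes lower and 1 to 3 neighbours higher in 1/7MC, and in 1/7MC+Pyr from 0 to 1 posterior genes higher and from 1 to 2 posterior and neighbouring genes lower. The replicate numbers did not pair the samples (18 same-number pairs, r from -0.316 to 0.333), and a replicate block moved 1 of the counts by over 1.5 times, HOX genes higher in 1/7MC+Pyr+FGF vs 1/7MC, from 2 to 1. With 66 to 283 HOX counts per library, depth limits the precision for every member, and which members outside the 8 tested were called depended on the filter.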
